A study of Mus musculus with 6 samples.

Results

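The Id genes and core components of the bone morphogenetic protein (BMP) pathway were measured in mouse embryonic stem cells at the start of neural differentiation, in cultures with lowered Geminin and in their controls. The group holds 10 genes, Id1, Id2, Id3, Id4, Bmp4, Smad6, Smad1, Bambi, Bmpr1a and Msx2. Every probe set whose annotation gave exactly 1 of these symbols was taken, which gave 22 of the 45037 probe sets on the array. Of these, 19 probe sets of 9 genes had a mean signal above the limit of 20.1 used for testing, against 31526 of all probe sets. Both probe sets of Msx2 and 1 of the 6 probe sets of Bmpr1a lay below that limit and are described by their values alone.

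BMP ligands bind paired type I and type II receptors, which phosphorylate SMAD1, SMAD5 and SMAD9. These enter the nucleus with SMAD4 and switch on target genes, among them the Id genes and the inhibitory SMADs that damp the signal. Id proteins lack a DNA-binding region and hold E proteins away from proneural partners. In mouse embryonic stem cells, BMP signalling through Id genes is known to hold back neural fate, and N2B27 is a serum-free medium without added BMP in which the cells turn neural.

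The cells derived from the E14TG2a line of 129P2 background. All cultures, controls included, carried an inducible hairpin in a microRNA backbone (shRNAmir) directed at Gmnn, the gene of Geminin, and had spent 2 days in N2B27. The 3 knockdown cultures (GemKD) received 500 ng of doxycycline (Dox), as the labels give it, and the 3 control cultures received none, so the effects of Dox and of the knockdown cannot be told apart. The line of experiments 1 and 3 carried shRNAmir 11 and the line of experiment 2 carried shRNAmir 9, so hairpin and line cannot be told apart either. Each experiment gave 1 GemKD and 1 control array. Median signals of the 6 arrays were 59.3 to 60.9, and precision is limited by how few arrays there were. Gmnn (1417506_at) in GemKD was at 27.6%, 48.0% and 36.7% of its control in experiments 1, 2 and 3. The labels call the cells neurectoderm, and all 7 neurectoderm markers examined were above the limit on average, Hes5 only just, at 20.8. Pluripotency markers were also present, with summed signals of 10144 to 16096 per array. Experiment 3 stood apart in both arms. Its neurectoderm markers summed to 7445 to 7977, against 10265 to 10873 in experiments 1 and 2. Of these Sox1 (-2.04), Pax6 (-2.25), Zic1 (-0.85) and Sox2 (-0.18) were called lower there on the log2 scale and Sox3 higher (0.35, limma adjusted p = 0.00399). Its primed epiblast markers summed to 20339 to 20693, against 13525 to 15675. The experiments are therefore also compared with each other below.

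The first comparison asks whether Geminin knockdown altered the Id genes or the BMP pathway. No member passed the test in GemKD against control. Id1 was the member with the largest difference in the fit over all arrays, 0.33 on the log2 scale, and lay above its control in each experiment. The other Id genes, the ligand Bmp4, the receptor Bmpr1a and the SMADs differed from their controls by at most 0.17 in either direction. All log2 values are of the signal plus 16, a scale that understates the change of dim genes. In limma, with Benjamini-Hochberg adjustment over all 31526 probe sets and a threshold of 0.05, 0 of the 19 tested probe sets were called, with an adjusted p of 1 for each. Of all probe sets, 1 was called higher (0.00317%) and none lower (0%). An unadjusted p under 0.05 was reached by 346, with no member among them. With the experiment as a block 0 members were called as well (adjusted p = 0.992 to 1), against 2 probe sets called higher (0.00634%) and 1 lower (0.00317%) of all. A fit with the block on experiments 1 and 2 alone called 0 members too, against 10 probe sets higher (0.0317%) and 3 lower (0.00952%). It left 1 degree of freedom per probe set for the spread. In the block fit over all arrays 1 member, Id1, was among 1456 probe sets with an unadjusted p under 0.05. The median half-width of the members' 95% intervals was 0.33 without and 0.21 with the block. Gmnn itself, the knockdown target, had a difference of -1.44 and was not called without the block (adjusted p = 0.296), while it was called with it (0.000403). The absence of calls without the block therefore says little about the members. The SEs of GemKD differences below are those without the block unless stated, and they include differences in level between experiments.

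**Figure D1:**
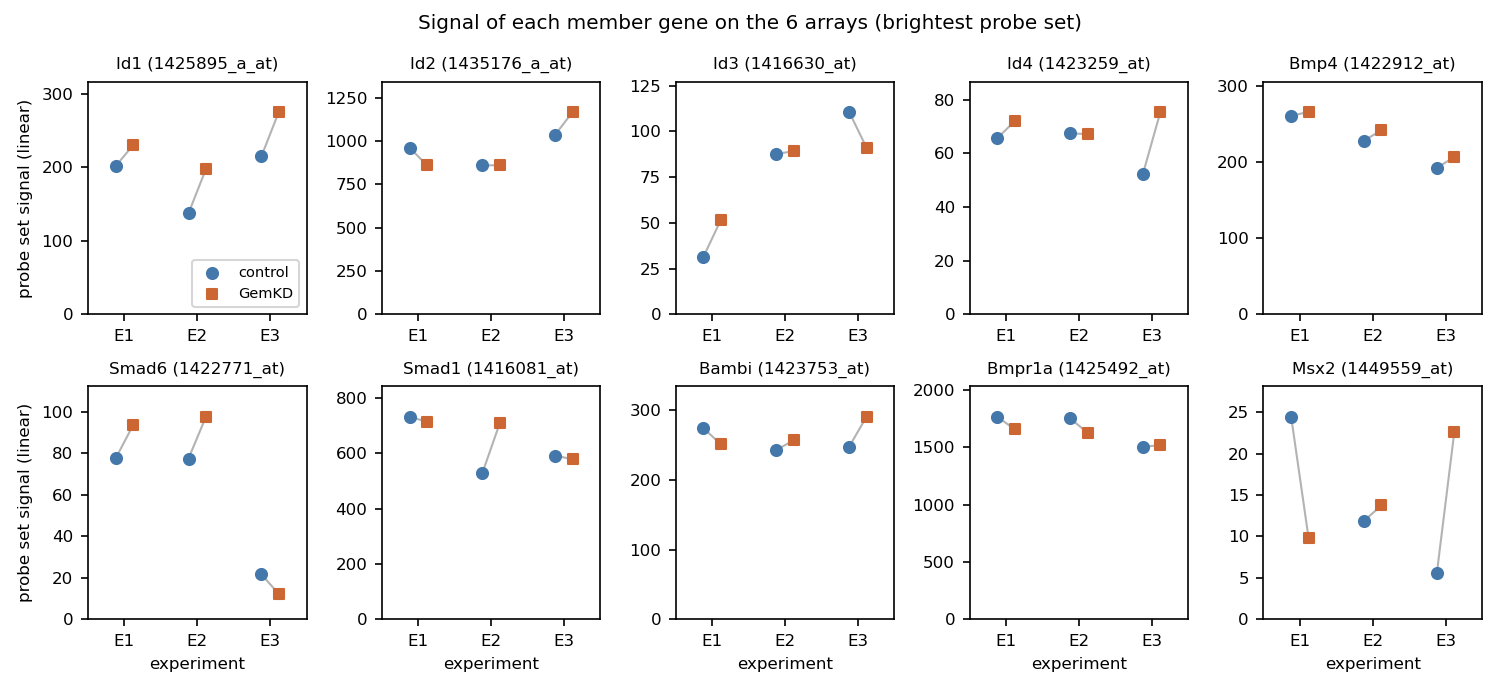
Signal of the brightest probe set of each of the 10 genes, with 1 panel per gene and a linear axis from 0. Circles are control arrays and squares GemKD arrays, and a grey line joins the pair of each experiment (E1, E2 and E3). GemKD and control arrays overlap in each panel, and the 2 Smad6 points of experiment 3, at 21.6 and 12.1, lie far below the other 4.

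Bmp4 encodes a secreted ligand of the pathway. Its probe set (1422912_at) had control signals of 261, 228 and 193 in experiments 1, 2 and 3, and GemKD signals of 266, 242 and 207. Each GemKD array lay slightly above the control of its own experiment, while the groups overlapped and experiment 3 was lowest in both arms. This gave a log2 difference of 0.07 (SE 0.15, limma adjusted p = 1). The mean signal was 227 ± 34.2 (SD, n = 3) in controls and 238 ± 29.9 (SD, n = 3) in GemKD.

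Bmpr1a encodes a type I BMP receptor. Its brightest probe set (1425492_at) had control signals of 1769, 1753 and 1505 and GemKD signals of 1658, 1629 and 1521 in experiments 1, 2 and 3. GemKD was below control in the first pair of experiments and about level in the third, with a log2 difference of -0.06 (SE 0.09, limma adjusted p = 1). A second probe set (1425491_at) had control signals of 397, 385 and 367 and GemKD signals of 411, 407 and 409. It was the 1 tested member whose GemKD and control arrays did not overlap, where 5.09% of all probe sets did not overlap. Its log2 difference was 0.09 (SE 0.10, limma adjusted p = 1). The other 3 tested probe sets of Bmpr1a had log2 differences between 0.002 and 0.04, so its probe sets did not share a direction. The dim 1445413_at ranged from 8.25 to 28.1 over the arrays.

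Bambi encodes a pseudoreceptor that lacks the kinase domain and blocks BMP and TGF-beta signalling. Its probe set (1423753_at) had control signals of 275, 243 and 248 and GemKD signals of 251, 257 and 291. GemKD lay below control in experiment 1 and above it in experiments 2 and 3, and the groups overlapped. On the log2 scale the difference was 0.06 (SE 0.12, limma adjusted p = 1).

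Smad1 encodes a signal carrier that the type I receptors phosphorylate. Its brightest probe set (1416081_at) had control signals of 733, 529 and 592 and GemKD signals of 714, 710 and 578. The GemKD array stood clearly above its control in experiment 2 alone, and the groups overlapped. Over all arrays GemKD differed by 0.11 on the log2 scale (SE 0.15, limma adjusted p = 1). The 2 other probe sets, 1459843_s_at and 1448208_at, had differences of 0.02 and 0.006, and neither shared the higher signal of experiment 2 to that extent, with within-experiment values of 0.13 and -0.04.

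Smad6 encodes an inhibitory SMAD and is itself a BMP target. Its probe set (1422771_at) had control signals of 77.5, 77.5 and 21.6 and GemKD signals of 93.6, 97.7 and 12.1. GemKD lay above control in experiments 1 and 2 and below it in experiment 3. There the control array was just above the limit for testing and the GemKD array under it. The log2 difference over all arrays was 0.03 (SE 0.58, limma adjusted p = 1), with an SE larger than that of any other member.

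Id1 was measured by 1 probe set (1425895_a_at). Its control signals were 202, 137 and 215, and its GemKD signals were 230.4, 198 and 276 in experiments 1, 2 and 3. GemKD was 1.14, 1.44 and 1.28 times its own control. The groups still overlapped, because the controls of experiments 1 and 3 exceeded the GemKD array of experiment 2. The mean was 185 ± 41.4 (SD, n = 3) in controls and 235 ± 39.0 (SD, n = 3) in GemKD. The log2 difference was 0.33 (SE 0.19, 95% interval -0.12 to 0.78, limma adjusted p = 1). In the fit blocked by experiment the SE was 0.11 and the interval 0.10 to 0.56, with an unadjusted p of 0.00901 and an adjusted p of 0.992.

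Id2 was bright in its main probe set (1435176_a_at), with control signals of 962, 859 and 1037 and GemKD signals of 859, 860.4 and 1168. GemKD lay below control in experiment 1, level in experiment 2 and above in experiment 3. The log2 difference was 0.004 (SE 0.14, limma adjusted p = 1). The dim 1453596_at went from 40.4 to 72.5 in experiment 1, from 54.4 to 60.8 in experiment 2 and from 82.0 to 49.5 in experiment 3. Those opposite directions averaged to 0.07 (SE 0.23). The third probe set, 1422537_a_at, averaged 0.03 (SE 0.13).

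Id3 (1416630_at) had control signals of 31.4, 87.7 and 111 and GemKD signals of 51.6, 89.2 and 91.1. The 2 arrays of experiment 1 were the lowest, and GemKD was above control there, level in experiment 2 and below in experiment 3. Together these gave a log2 difference of 0.10 (SE 0.37, limma adjusted p = 1).

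Id4 was dim in all 3 of its probe sets. The brightest, 1423259_at, had control signals of 65.7, 67.5 and 52.4 and GemKD signals of 72.0, 67.2 and 75.5. The control of experiment 3 was lower than the other 5 arrays, and the groups overlapped narrowly. Its log2 difference was 0.17 (SE 0.14), while 1423260_at had -0.03 (SE 0.16) and 1450928_at 0.10 (SE 0.16), each with a limma adjusted p of 1. Msx2, a homeobox gene that BMP switches on in several tissues, ranged from 5.55 to 24.5 and from 2.20 to 15.4 in its 2 probe sets, and no direction was read from these values.

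**Figure D2:**
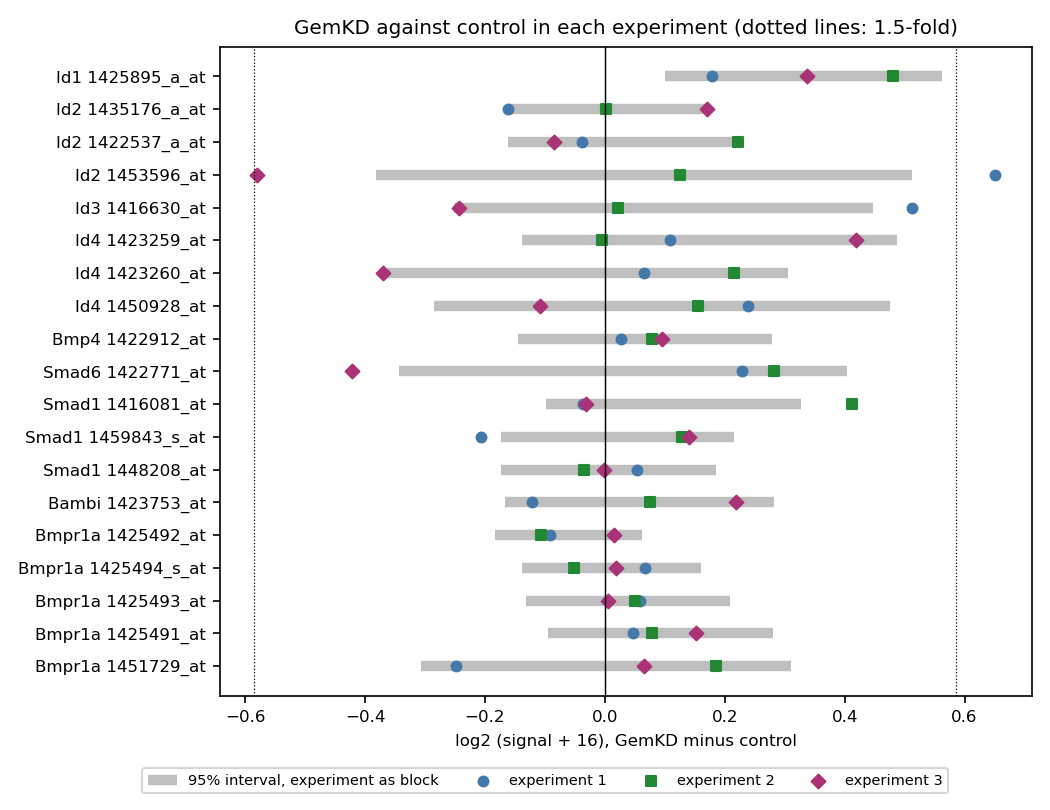
Log2 difference (signal plus 16) of GemKD minus control for each tested probe set, with 1 point per experiment. Grey bars are 95% intervals of the limma fit with experiment as a block, and dotted lines mark 1.5-fold. The 3 points of Id1 all lie above 0, and 1 point, that of Id2 1453596_at in experiment 1, passes 1.5-fold.

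Within single experiments, which have 1 array per arm and allow no test, 1 member probe set passed 1.5-fold on the scale of the signal plus 16 in experiment 1 and 0 did so in experiments 2 and 3. The shares of all probe sets past that fold in either direction were 2.18%, 3.39% and 5.28%. That probe set was Id2 1453596_at, whose plain signal ratio was 1.80 in experiment 1 and 0.60 in experiment 3. The same direction in all 3 experiments was seen in 4 of 19 member probe sets, against 24% of all. These were Id1, Bmp4 and 2 of the Bmpr1a probe sets, all with GemKD higher (13.5% of all probe sets were higher in each experiment and 10.5% lower). No member passed 1.5-fold in all 3 experiments, as 0.0444% of all did. Over all arrays 17 of 19 member probe sets had a positive difference, with a median of 0.04, where all probe sets had a median of 0.01 and 55% were positive. The probe sets of a gene are not independent, and no test was made of this count. It also rested on the scaling, since quantile normalization turned 5 of the 17 to values between -0.02 and -0.003.

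The hairpins were compared next, since the series design names off-target control as the purpose of having both. Only experiment 2 used shRNAmir 9, with 1 GemKD and 1 control array, so its spread is assumed to be that of the other arrays and a miss says little. With the experiment as a block, 1 degree of freedom per probe set is left for the spread, from experiments 1 and 3 alone. The GemKD difference did not pass the test of a difference between shRNAmir 9 and shRNAmir 11 for any member (0 of 19, with 0% of all probe sets called in either direction in limma). Without the block 209 probe sets, none of them a member, had an unadjusted p under 0.05. The largest estimates were those of Smad1 1416081_at, at 0.45 (95% interval -0.39 to 1.28), and Smad6, at 0.38 (-2.65 to 3.41). For Id1 the estimate was 0.22 (-0.63 to 1.07). Intervals of this width leave room for sizeable differences in either direction. With the experiment as a block 0 members were called, against 97 probe sets higher (0.308%) and 9 lower (0.0285%) of all. In that fit Smad1 1416081_at, at 0.45 (95% interval 0.06 to 0.84, unadjusted p = 0.0267, adjusted p = 0.991), was the 1 member among 1362 probe sets with an unadjusted p under 0.05.

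Between the experiments the members differed more than between the arms. Smad6 was much lower in experiment 3 than in experiments 1 and 2, and Id1, Id2 and Id3 were higher there on average, by smaller amounts. Of these, Id3 was low in experiment 1 rather than high in experiment 3 alone, and the Id1 arrays overlapped. In limma with the arm as a covariate, 3 member probe sets were called higher in experiment 3 and 1 lower of 19. Without the intensity trend 0 were called higher, and without the filter on dim probe sets Id1 and Id3 were not called, while Smad6 was called in both. Of all probe sets 3334 were called higher (10.6%) and 5003 lower (15.9%), so calls were common throughout the array. The median absolute log2 difference was 0.18 over the members and 0.19 over all probe sets. Experiment 3 is 1 experiment, so these p-values measure the spread between arrays and not between experiments. The arrays of experiment 3 did not overlap the other 4 for 10 of 19 member probe sets, and for 46.5% of all.

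Smad6 averaged 86.6 ± 10.6 (SD, n = 4) over the arrays of experiments 1 and 2, and its signals were 21.6 and 12.1 in experiment 3. Both arrays of experiment 3 lay below all others. Their mean of 16.9 was under the limit for testing, which Smad6 passed through experiments 1 and 2 alone, so the size of the fold is uncertain. The log2 difference was -1.65 (SE 0.18, 95% interval -2.05 to -1.26, limma adjusted p = 7.22e-05). Without the filter, where no probe set is selected by its signal, the adjusted p was 0.00176. The difference was -2.34 with a pseudocount of 1 and -0.90 with one of 64. It remained called when any 1 array, or both arrays of experiment 1 or 2, were left out, with differences of -1.99 to -1.31.

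Id3 averaged 41.5 in experiment 1, 88.4 in experiment 2 and 100.9 in experiment 3. It was therefore low in experiment 1 rather than high in experiment 3 alone. The difference of experiment 3 from the others was 0.60 (SE 0.17, limma adjusted p = 0.0224). Without experiment 1 it was 0.16 (adjusted p = 0.591), and the call was also lost without the control array of experiment 1 (0.0813) or of experiment 3 (0.263). Between experiments 2 and 1 the Id3 difference was 0.88 (SE 0.20), with an unadjusted p of 8.02e-04 and an adjusted p of 0.574.

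Id2 1435176_a_at averaged 885 ± 51.4 (SD, n = 4) in experiments 1 and 2 and 1103 in experiment 3. Both arrays of experiment 3 were above the other 4, with a log2 difference of 0.31 (SE 0.08, limma adjusted p = 0.0155). The call was lost without the GemKD array of experiment 1 (0.0736) or of experiment 3 (0.182). The second bright probe set of Id2, 1422537_a_at, had 0.22 (SE 0.09, adjusted p = 0.117), with no overlap either.

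Id1 averaged 192 ± 39.1 (SD, n = 4) in experiments 1 and 2 and 245 in experiment 3. Here the arrays overlapped, since the GemKD array of experiment 1 exceeded the control of experiment 3. The log2 difference was 0.34 (SE 0.11, limma adjusted p = 0.0428), and the call was lost in 6 of 8 fits that left out arrays, with adjusted p-values of 0.0523 to 0.468 in those fits. These were the fits without either array of experiment 3, without either array of experiment 1, without the control of experiment 2, and without both arrays of experiment 2.

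Other members came close to the threshold or lay far from it. Bmp4 had -0.30 (SE 0.10, adjusted p = 0.0521), Bmpr1a 1425492_at -0.17 (SE 0.06, 0.0579) and Smad1 1459843_s_at -0.25 (SE 0.09, 0.0750) in experiment 3. All 3 probe sets of Smad1 were negative, with the others at -0.18 and -0.19. Bambi had 0.06 (SE 0.11) and the probe sets of Id4 had -0.09 to -0.02. Bmp4 and Bmpr1a 1425492_at passed in the fit with 1 probe set per gene, at adjusted p = 0.0357 and 0.0398.

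**Figure D3:**
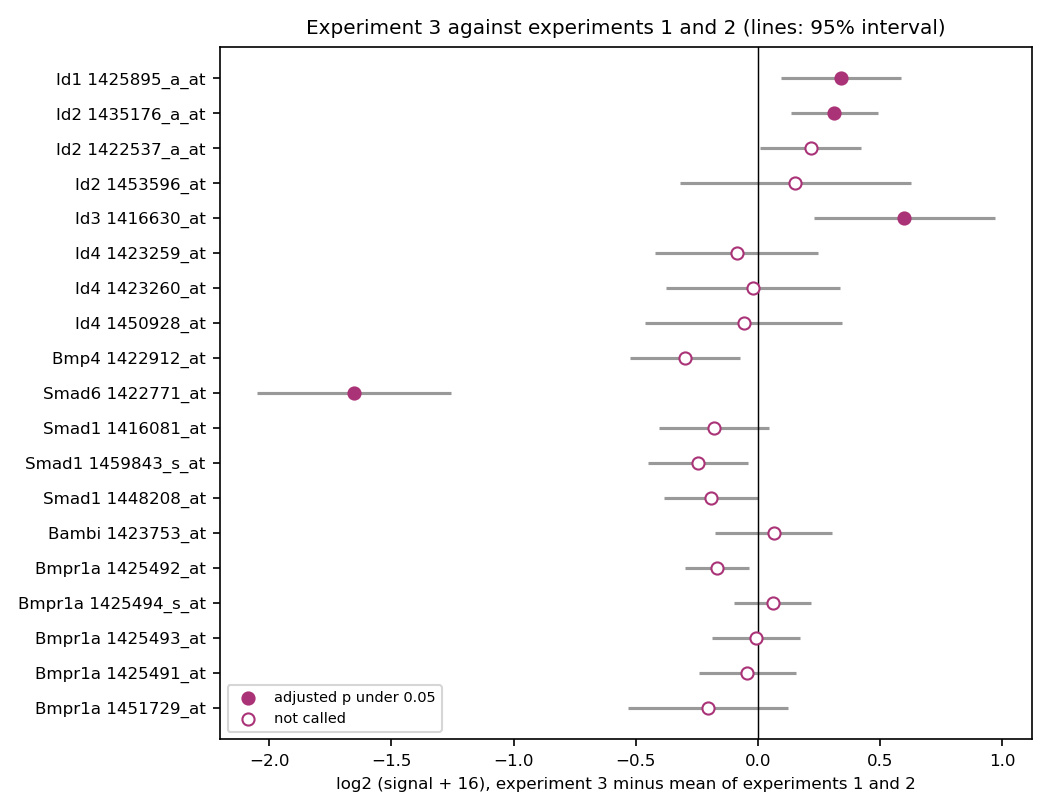
Log2 difference (signal plus 16) of experiment 3 minus the mean of experiments 1 and 2 for each tested probe set, with 95% intervals of the limma fit. Filled points are those with an adjusted p under 0.05 and open points are not called. Smad6 lies at -1.65 and the 3 called Id probe sets lie between 0.31 and 0.60.

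Several sums of cell type markers also differed between experiment 3 and experiments 1 and 2, a comparison in which 46.5% of all probe sets did not overlap. Surface ectoderm markers summed to 1177 to 1205 in experiment 3 and to 673 to 763 in experiments 1 and 2, with 2 of 6, Gata3 and Trp63, below the limit. Of the others Krt18 (1.49) and Krt8 (0.62) were called higher on the log2 scale, while Krt14 (-0.32) and Tfap2a (-0.20) had negative differences that did not pass. Trophoblast markers summed to 305 to 379 and to 954 to 1185, with Elf5 of the 4 below the limit. That sum followed Tfap2c (-1.85), while Krt7 (0.23) and Cdx2 (0.07) did not pass. Fibroblast markers, 6 of 6 above the limit, summed to 927 to 975 and to 1448 to 1580, although Thy1 was called higher in experiment 3 (0.66, limma adjusted p = 0.0193). Pluripotency markers, 7 of 7 above the limit, summed to 10144 to 10460 and to 13963 to 16096. Pou5f1 (7338 to 7403 against 7387 to 7711) and Esrrb (454 to 486 against 423 to 537) overlapped between the experiments. Nanog, Zfp42, Klf4, Tbx3 and Dppa3 were lower in both arrays of experiment 3 than in every array of experiments 1 and 2. The part of these cell types in the differences of the Id genes and Smad6 was not tested. In such bulk samples, fewer cells of a type and less RNA per cell cannot be told apart. Primitive streak and mesoderm markers (719 to 744 against 725 to 871) and endoderm markers (370.0 to 374 against 283 to 438) differed less, with Mixl1, Kdr and Afp below the limit.

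Experiment 2 differed from experiment 1 in line and hairpin and was a separate experiment. Line, hairpin and experiment cannot be told apart here, and 0 of 19 members were called between experiments 1 and 2. Of all probe sets, 11 were called higher (0.0349%) and none lower (0%) in limma, while 1178 reached an unadjusted p under 0.05. Of the members, Id3 (above) and Id1, at -0.35 (SE 0.13, adjusted p = 1), were among those 1178.

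The promoters of the Id genes and Smad6 are shown because Id2, Id3 and Smad6 were called between experiments, with Id4 as an Id gene that was not, and because SMAD complexes are known to bind short motifs in BMP target promoters. RefSeq promoters (GRCm38.p6) were matched for 8 of 10 members, all but Id1 and Bambi, and the 250 bases before the transcription start were searched on both strands. Capitals mark GGCGCC, a GC-rich motif bound by BMP SMADs, and CAGAC, which reads GTCTG on the opposite strand and is also a SMAD motif. No matches overlap each other here. Id2 lies at chr12:25096093-25096342 (minus strand), Id3 at chr4:136143572-136143821 (plus), Id4 at chr13:48260866-48261115 (plus) and Smad6 at chr9:64022060-64022309 (minus).
Id2: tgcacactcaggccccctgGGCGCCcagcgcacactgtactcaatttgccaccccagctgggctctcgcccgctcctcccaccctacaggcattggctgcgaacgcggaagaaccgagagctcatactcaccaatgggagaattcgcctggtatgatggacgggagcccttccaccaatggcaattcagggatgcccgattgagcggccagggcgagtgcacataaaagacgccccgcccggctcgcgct
Id3: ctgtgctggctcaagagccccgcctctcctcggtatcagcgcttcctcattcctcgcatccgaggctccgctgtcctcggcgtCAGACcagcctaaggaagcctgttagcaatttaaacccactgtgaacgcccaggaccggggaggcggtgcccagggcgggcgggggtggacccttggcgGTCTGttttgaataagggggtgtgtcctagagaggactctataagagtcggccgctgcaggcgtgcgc
Id4: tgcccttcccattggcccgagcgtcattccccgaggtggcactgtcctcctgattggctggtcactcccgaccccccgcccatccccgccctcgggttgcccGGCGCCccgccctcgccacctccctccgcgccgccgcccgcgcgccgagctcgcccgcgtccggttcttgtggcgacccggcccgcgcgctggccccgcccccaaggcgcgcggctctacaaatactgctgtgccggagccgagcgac
Smad6: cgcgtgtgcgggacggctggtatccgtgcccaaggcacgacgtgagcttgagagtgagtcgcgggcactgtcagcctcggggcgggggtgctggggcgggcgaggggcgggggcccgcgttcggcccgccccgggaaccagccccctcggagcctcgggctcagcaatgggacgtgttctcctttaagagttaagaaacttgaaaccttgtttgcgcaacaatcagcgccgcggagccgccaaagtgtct
Counting back from the start, GGCGCC began at -231 in Id2 and at -148 in Id4, and CAGAC or its complement at -167 and -68 in Id3. Neither was found in these bases of Smad6. Bmpr1a also held GGCGCC, at -198, while Bmp4, Smad1 and Msx2 held neither. Of 32851 promoters of this length, 9.6% held GGCGCC and 42.2% held CAGAC. A match describes these letters only and is neither a binding site nor a cause of any value above.

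The wider pathway was described through 7 lists, holding 47 genes above the limit, each by its brightest probe set. In GemKD against control, 0 genes of any list passed in limma, and the block did not alter that. The median log2 difference was 0.03 over the 47 genes, against 0.01 over all probe sets and 0.002 over all genes at 1 probe set each. Of the 47, 11 were higher and 4 lower in all 3 experiments. The shares over all probe sets were 13.5% and 10.5%, and shares with 1 probe set per gene were not counted. In experiment 3 against experiments 1 and 2, 6 of the 47 were called higher and 12 lower. These calls come from the fit over all probe sets, and the shares of all genes called in the fit with 1 probe set per gene were 11.9% and 22.1%. Without the intensity trend the calls of Bmp5, Acvr2a, Acvr2b, Smad4, Smad5, Smurf2, Ppm1a, Fst, Twsg1 and Tcf4 were lost (limma adjusted p between 0.0515 and 0.173), besides those of Id1, Id2 and Id3.

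Among the ligands, 0 of 7 passed in GemKD (median 0.03, all probe sets 0.01). Bmp2 had control signals of 22.8, 29.8 and 42.1 and GemKD signals of 26.4, 35.1 and 49.2, a difference of 0.15 (SE 0.22). Bmp7 had -0.14 (SE 0.14) and Bmp5 -0.10. In experiment 3, Bmp5 was called higher, at 0.61 (SE 0.18, adjusted p = 0.0286), and the call was lost in 3 of 8 fits that left out arrays and without the filter (0.0908). Bmp2 had 0.475 in experiment 3 and was not called, with 0.348 to 0.603 when arrays were left out. Without the intensity trend Bmp2 was called (limma adjusted p = 0.0280). The median of the 7 ligands in experiment 3 was 0.03.

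Among receptors and co-receptors, 0 of 10 passed in GemKD (median -0.008). Bmpr1b, a second type I receptor, had control signals of 45.5, 41.8 and 49.6 and GemKD signals of 46.6, 66.3 and 79.7, higher in experiments 2 and 3. Its difference was 0.36 (SE 0.18, limma adjusted p = 1, and 0.992 when blocked by experiment). In experiment 3 the type II receptors Acvr2a (-0.34) and Acvr2b (-0.34) and the co-receptor Rgma (-0.89) were called lower, with adjusted p-values of 0.0184, 0.00575 and 0.00522. The calls were lost in 4, 1 and 2 of 8 fits that left out arrays. Rgma averaged 16.7 in experiment 3, under the limit for testing, which it passed through experiments 1 and 2 alone, and without the filter its adjusted p was 0.0173. None of the 10 was called higher and the median was -0.18.

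Of the SMAD signal carriers, 0 of 3 passed in GemKD (median 0.02). Smad5 (-0.33) and the shared partner Smad4 (-0.19) were called lower in experiment 3 (adjusted p = 0.0181 and 0.0103), with a list median of -0.19. The Smad5 call was lost in 4 of 8 fits that left out arrays and with quantile normalization (0.0522). Smad9 was below the limit.

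Of the inhibitory SMADs and intracellular brakes, 0 of 9 passed in GemKD (median 0.06). Smad7, an inhibitory SMAD, had control signals of 245, 329 and 200.2 and GemKD signals of 355, 409 and 203. The signal stood above control in experiments 1 and 2 and level in experiment 3, with a difference of 0.28 (SE 0.27, limma adjusted p = 1). Tob1 had 0.13 and Smurf1 0.11. In experiment 3, Smad6, Smad7 (-0.67, adjusted p = 0.00167) and the ubiquitin ligase gene Smurf2 (-0.39, 0.00234) were called lower and the phosphatase gene Ppm1a (0.19, 0.0165) higher, with a median of -0.02. The Ppm1a call was lost in 3 of 8 fits that left out arrays, and those of Smad7 and Smurf2 in 0.

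Of the secreted antagonists, 0 of 7 passed in GemKD (median 0.009). Chrd, the gene of chordin, had control signals of 79.5, 26.6 and 21.6 and GemKD signals of 58.5, 60.6 and 67.7. The GemKD arrays were alike and the controls were not, so the groups overlapped through the high control of experiment 1. The difference was 0.55 (SE 0.33, limma adjusted p = 1). Chrdl1 had -0.34 (SE 0.27) and Fstl1 0.14. In experiment 3, Fstl1 (-0.96, adjusted p = 1.47e-06) and Twsg1 (-0.26, 0.0386) were called lower and Fst, the gene of follistatin, higher (0.41, 0.00411), with a median of -0.14. The Twsg1 call was lost in all 8 fits that left out arrays, with quantile normalization (0.108) and without the filter (0.0504). Chrdl1, which averaged 18.2 in experiments 1 and 2 and passed the limit through experiment 3, had 0.52 (adjusted p = 0.131).

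Of 16 listed BMP target genes 11 were above the limit and 0 passed in GemKD. All 11 had a positive difference, between 0.003 and 0.33, with a median of 0.10, and 3 were higher in each experiment, namely Id1, Smad7 and Tbx3. Of all genes at 1 probe set each 51.2% were positive, and 13.5% of all probe sets were higher in each experiment. The count of positive targets fell to 7 to 10 when arrays were left out and to 9 with quantile normalization. The list also overlaps one for which a common direction in these arrays was already known, so the count is no independent evidence. Tbx3 had control signals of 169, 127 and 101 and GemKD signals of 183, 163 and 115, a difference of 0.20 (SE 0.22, limma adjusted p = 1). In experiment 3 the targets went both ways. Id1, Id2 and Id3 were called higher and Smad6, Smad7 and Tbx3 (-0.50, adjusted p = 0.00914) lower, with a median of -0.08. The Tbx3 call was lost without experiment 1 (0.121), and those of Id1, Id2 and Id3 were lost in some fits that left out arrays. Among the E proteins that Id proteins bind, 0 of 3 passed in GemKD (median 0.06), with Tcf12 at 0.06, Tcf3 at 0.06 and Tcf4 at 0.04. In experiment 3 Tcf4 was called lower (-0.33, adjusted p = 0.00575, and 0.0663 without the GemKD array of experiment 3), Tcf3 had -0.07 and Tcf12 -0.008, with a median of -0.07.

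**Figure D4:**
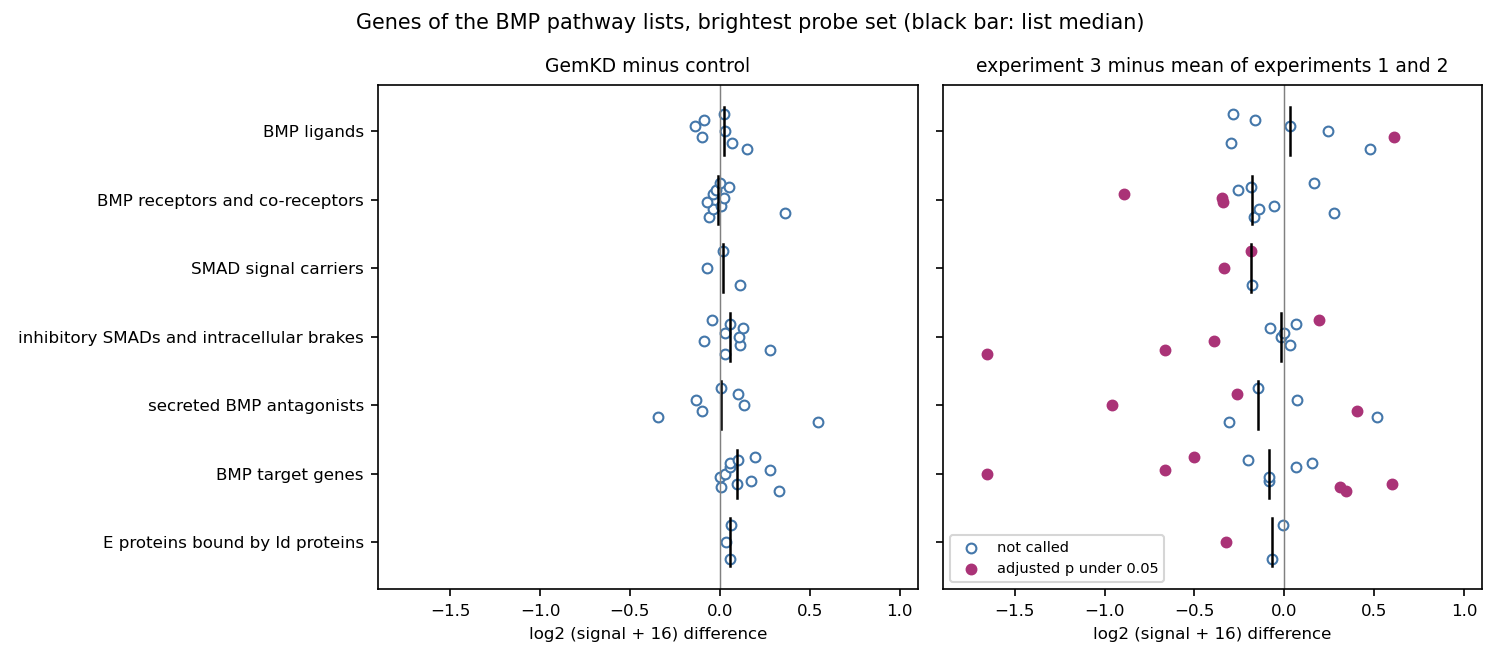
Log2 differences (signal plus 16) of the genes of 7 BMP pathway lists, with 1 point per gene at its brightest probe set and a black bar at each list's median, for GemKD against control and for experiment 3 against experiments 1 and 2. In GemKD no gene of any list passed the test, and in experiment 3 Smad6, at -1.65, and Fstl1, at -0.96, lie lowest.

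Likeness to Id1 and Id3 was measured over the 6 arrays as the root mean square difference of log2 values about each gene's mean, over 14184 genes. Closest to Id1, whose own spread was 0.28, were Gm14137 (0.08), Ackr2 (0.08), Krt31 (0.09), Synrg (0.09) and Bco1 (0.09). Closest to Id3, with an own spread of 0.49, were Stfa3 (0.13), Abcc8 (0.17), Rab19 (0.19), D130037M23Rik (0.20) and Prdm8 (0.21). No other member or listed pathway gene was among these 10. Several of the 10 were dim, with signals of 6.99 to 31.9 for Stfa3, 6.94 to 35.8 for Abcc8 and 11.8 to 38.1 for Ackr2. Whether any of them is regulated together with Id1 or Id3 was not tested.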

How the data were processed

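Total RNA of 6 cultures was hybridised to the Affymetrix Mouse Genome 430 2.0 Array, as the labels state. For each array the authors deposited a linear intensity per probe set, and no source used here gives the software, background correction or normalization behind it. Array medians lay close together, so no normalization was added, and 1.58% to 1.69% of values were exactly 1. The platform annotation gave 1 symbol for 34945 probe sets, several for 932 and none for 9160, and RefSeq changed 0 symbols. Probe sets with a mean above the 30th percentile (20.1) were tested with limma 3.58.1 in R 4.3.3 as log2 of the intensity plus 16, a scale computed here from the deposited values, using two-sided tests, an intensity trend in eBayes and Benjamini-Hochberg adjusted p under 0.05. The tests between experiments, and the GemKD and hairpin tests with the experiment as a block, were run on simulated data first. The GemKD and hairpin tests without the block were not.

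The main GemKD comparison had no block, and the alternative took the experiment as a block. Same-numbered arrays are 1 experiment with its own control, and their deviations from the group means correlated at 0.431, 0.38 and 0.656. The control of experiment 1 and the GemKD array of experiment 2 correlated at 0.386, slightly above the own pair of experiment 2. The control of experiment 2 and the GemKD array of experiment 1 correlated at 0.26. The pairing therefore rests on the labels. The members, gene lists, markers and tests were chosen with earlier results of these data known. The genes named are all members, Gmnn, list genes called in any comparison or among the 3 largest of a list in either main comparison, and the 5 genes closest to Id1 and Id3. Alternatives were quantile normalization, other filters and pseudocounts, no intensity trend, 1 probe set per gene, the hairpin as a covariate, no arm covariate and leaving out arrays. Nothing says that the cultures of an experiment were replicated, so p-values measure the spread between these arrays.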

Additional observations from a re-analysis of the deposited data

How the results depend on the processing

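The 6 arrays limit every comparison, and 2 arrays stand for experiment 3. In GemKD against control 0 members were called in any alternative run, and Id1 kept a positive difference in each (0.15 to 0.44 when arrays were left out). With the experiment as a block (the replicate block), 2 probe sets were called higher and 1 lower of all, and Gmnn passed (-1.44). The block changed no other call of the genes named in that comparison. With experiments 1 and 2 alone in that fit the counts were 10 and 3, and with 1 probe set per gene, an alternative added after seeing the data, 2 and 3. Without the intensity trend 0 were called higher, and 0 to 1 when arrays were left out. The sign turned with quantile normalization for Id2 1435176_a_at (-0.009), Smad1 1459843_s_at (-0.003) and 1448208_at (-0.017), and Bmpr1a 1425494_s_at (-0.005) and 1451729_at (-0.007). It turned with a pseudocount of 1 for Smad6 (-0.063), with a pseudocount of 64 for Bmpr1a 1451729_at (-0.001), and in experiments 1 and 2 alone for Id2 1435176_a_at (-0.079), Id4 1423260_at (0.141), Smad1 1459843_s_at (-0.039), Bambi (-0.023) and Bmpr1a 1451729_at (-0.031). When arrays were left out, GemKD differences that turned ranged from -0.141 to 0.086 (Id2 1435176_a_at), -0.087 to 0.135 (Id2 1422537_a_at), -0.227 to 0.388 (Id2 1453596_at), -0.328 to 0.382 (Id3), -0.152 to 0.141 (Id4 1423260_at), -0.04 to 0.165 (Bmp4), -0.408 to 0.694 (Smad6), -0.034 to 0.241 (Smad1 1416081_at), -0.091 to 0.138 (Smad1 1459843_s_at), -0.056 to 0.072 (Smad1 1448208_at), -0.023 to 0.147 (Bambi), -0.016 to 0.043 (Bmpr1a 1425494_s_at), -0.091 to 0.126 (Bmpr1a 1451729_at), -0.013 to 0.304 (Bmp2), -0.388 to 0.179 (Bmp5), -0.191 to 0.037 (Acvr2a), -0.167 to 0.056 (Smad5), -0.047 to 0.078 (Smad4), -0.157 to 0.483 (Fstl1), -0.044 to 0.165 (Tcf3) and -0.043 to 0.177 (Tcf4). Within experiments, the members past 1.5-fold were 2 in experiment 1 and 2 in experiment 3 with a pseudocount of 1, 0 in experiment 1 with a pseudocount of 64, and 1 in experiment 3 with quantile normalization. For experiment 3 Smad6, whose mean there was under the limit, was called in the alternatives run, also without the filter. The members called higher were 1 without the filter, where Id1 and Id3 were lost, 0 without the trend, and 1 to 3 when arrays were left out. The members called lower were 2 with the filter at the 50th percentile, 3 with 1 probe set per gene, 2 without the arm covariate, where Id1 was also lost (adjusted p = 0.119), and 1 to 2 when arrays were left out. All probe sets called were 1637 higher and 2624 lower without the trend, 1685 and 3137 with 1 probe set per gene, and 1998 to 3087 and 3535 to 4385 when arrays were left out. The sign turned with quantile normalization for Bmpr1a 1425493_at (0.062) and 1425491_at (0.027) and Tcf12 (0.032). When arrays were left out it turned for Id2 1453596_at (-0.332 to 0.637), Id4 1423259_at (-0.271 to 0.096), 1423260_at (-0.277 to 0.234) and 1450928_at (-0.212 to 0.093), Bambi (-0.058 to 0.185), Bmpr1a 1425493_at (-0.046 to 0.029) and 1425491_at (-0.088 to 0.001), Tcf3 (-0.233 to 0.096) and Tcf12 (-0.053 to 0.037). Between experiments 2 and 1, all probe sets called higher were 6 without the filter, 2 without the trend and 11 to 47 when arrays were left out, and lower 1 with a pseudocount of 64, 5 with 1 probe set per gene and 0 to 196 when arrays were left out. The hairpin interaction called 97 higher and 9 lower with the replicate block and 0 to 1 in each direction when arrays were left out. It was not run without either array of experiment 2, the 1 experiment with shRNAmir 9. The cause of these shifts was not tested.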
